A study of Mus musculus with 17 samples.

Results

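The genes described are 8 enzymes that process benzo(a)pyrene (BaP) and similar foreign compounds beside the P450 enzymes of family CYP1. They are the epoxide hydrolase Ephx1, the P450 electron donor Por, the P450 genes Cyp2s1 and Cyp4b1, the glucuronosyltransferases Ugt1a6a, Ugt1a6b and Ugt2b34, and the sulfotransferase Sult1a1. Members were taken by name, as every array probe whose RefSeq transcript belongs to 1 of these genes. This gave 11 probes for the 8 genes, of 55681 probes on the array and 21382 genes tested. All 11 probes were well above background in the tissue channel on all 17 arrays, so no member was lost to the filter on dim probes.

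The series measured RNA of the forestomach, the squamous-lined upper part of the rodent stomach, on Agilent arrays with 2 colours. Cy5 carried the RNA of 1 male MutaTMMouse animal per array, and Cy3 carried a reference RNA pooled from 11 mouse cell lines. MutaTMMouse animals carry a bacterial lacZ transgene used to score mutations, and every group carries it. No array had the colours exchanged, so each value is a log2 ratio of tissue over reference. Controls received olive oil by gavage (n = 5, replicates 1 to 5). The other groups received BaP in olive oil at 25 mg/kg per day (n = 4, replicates 6 to 9), at 50 mg/kg per day (n = 4, replicates 12 to 15) or at 75 mg/kg per day (n = 4, replicates 17 to 20). Dosing was daily for 28 days, and tissue was collected 72 hours after the final dose, so the values describe tissue after dosing had ended. The animals were aged 24 to 26 weeks. The protocol states n = 5 for each group, and replicates without an array here were not analysed.

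BaP is not reactive until the tissue oxidises it. P450 enzymes, fed with electrons by Por, place an epoxide on the ring system, and epoxide hydrolase opens it to a dihydrodiol, which P450 enzymes can oxidise again to a diol epoxide that binds DNA. Glucuronosyltransferases and sulfotransferases attach a sugar acid or a sulfate to the phenols, quinols and diols formed on the way, which makes them soluble and ready for export. Several of these genes are known targets of the aryl hydrocarbon receptor (AHR), the receptor that BaP binds.

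The stretches of DNA just before the genes are shown because 2 members fell together at the highest dose and because the AHR core motif was found before a single member. Each is the 250 bases before the annotated start, read 5′ to 3′ on the gene's strand, from RefSeq promoters of build GRCm38.p6. Capitals mark the AHR core motif GCGTG, or CACGC where it lies on the opposite strand. Ugt2b34 is at chr5:86906938-86907187 (minus strand), Cyp4b1 at chr4:115647722-115647971 (minus strand) and Por at chr5:135688895-135689144 (plus strand).
Ugt2b34: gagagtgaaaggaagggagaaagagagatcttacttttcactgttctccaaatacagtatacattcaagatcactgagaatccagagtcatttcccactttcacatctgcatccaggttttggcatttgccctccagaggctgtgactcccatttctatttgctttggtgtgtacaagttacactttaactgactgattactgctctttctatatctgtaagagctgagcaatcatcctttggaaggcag
Cyp4b1: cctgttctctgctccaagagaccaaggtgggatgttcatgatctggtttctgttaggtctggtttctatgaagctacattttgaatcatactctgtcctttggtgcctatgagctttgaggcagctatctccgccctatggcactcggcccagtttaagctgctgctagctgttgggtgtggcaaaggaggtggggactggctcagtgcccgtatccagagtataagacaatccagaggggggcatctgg
Por: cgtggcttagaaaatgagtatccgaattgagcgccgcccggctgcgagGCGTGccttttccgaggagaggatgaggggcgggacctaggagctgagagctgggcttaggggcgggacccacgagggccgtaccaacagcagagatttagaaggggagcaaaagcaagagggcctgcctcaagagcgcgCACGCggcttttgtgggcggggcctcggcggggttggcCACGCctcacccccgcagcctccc

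A promoter was available for 7 of the 8 members, Ugt1a6b having none in the table. GCGTG, searched on both strands, had 3 matches before Por and 0 before Ephx1, Ugt1a6a, Ugt2b34, Sult1a1, Cyp4b1 and Cyp2s1. The matches before Por began 202, 62 and 24 bases upstream of the start. In the same window, 28.2% of 32841 mouse promoters held the motif. The motif TGACNNNGC of the antioxidant response, searched on both strands and able to overlap GCGTG at its final GC, had 0 matches in the 7 promoters and was held by 10.2% of all promoters. A match is a run of letters and not a measured binding site.

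On the 17 arrays 39.8% to 50.7% of probes were well above background in Cy5. The squamous epithelium the label names was present: 8 of 8 basal and 13 of 14 suprabasal keratinocyte markers were measured. RNA of other cell types moved between arrays. Markers of glandular stomach had a mean log2 ratio of 0.18 to 1.54 in controls, but of 5.11 in 25 mg/kg replicate 7 and of 2.48 and 2.95 in 75 mg/kg replicates 17 and 20. Hepatocyte markers had a mean of 4.40 in control replicate 1, 3.85 in 25 mg/kg replicate 7 and 3.46 in 75 mg/kg replicate 17, against 0.66 in control replicate 5. The 2 measured markers of pancreas acinar cells had a mean of 2.16 in 75 mg/kg replicate 17. On the other arrays that mean was -0.50 to 0.022. Some list results below are also given without control replicate 1 or without 25 mg/kg replicate 7. The 3 array slides each held all 4 groups.

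Of the 8 enzymes, Ugt2b34 and Cyp4b1 were lower than control after 75 mg/kg, and no member was higher at any dose by the test used. Both calls lay close to the threshold. Each was lost under some other settings and in most fits that left out 1 array, as given below. The test throughout was limma's on log2 ratios, two-sided, with Benjamini-Hochberg adjustment over all genes and a threshold of 0.05. No member passed at 25 mg/kg, where 0.014% of all genes did, or at 50 mg/kg, where 0.0468% did. At 75 mg/kg 2 of 8 members passed, both lower, against 1.1% of all genes in either direction and 0.21% lower. The median difference of the 8 members at 75 mg/kg was -0.063, beside -0.0084 over all genes. At an unadjusted p under 0.05, 1, 2 and 3 of the 8 members passed at 25, 50 and 75 mg/kg, against 3.26%, 6.81% and 10.1% of all genes. Between 75 and 25 mg/kg 1 of 8 did, against 4.74% of all genes, and on a straight line over dose 2 of 8 did, against 11.4%.

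**Figure D1:**
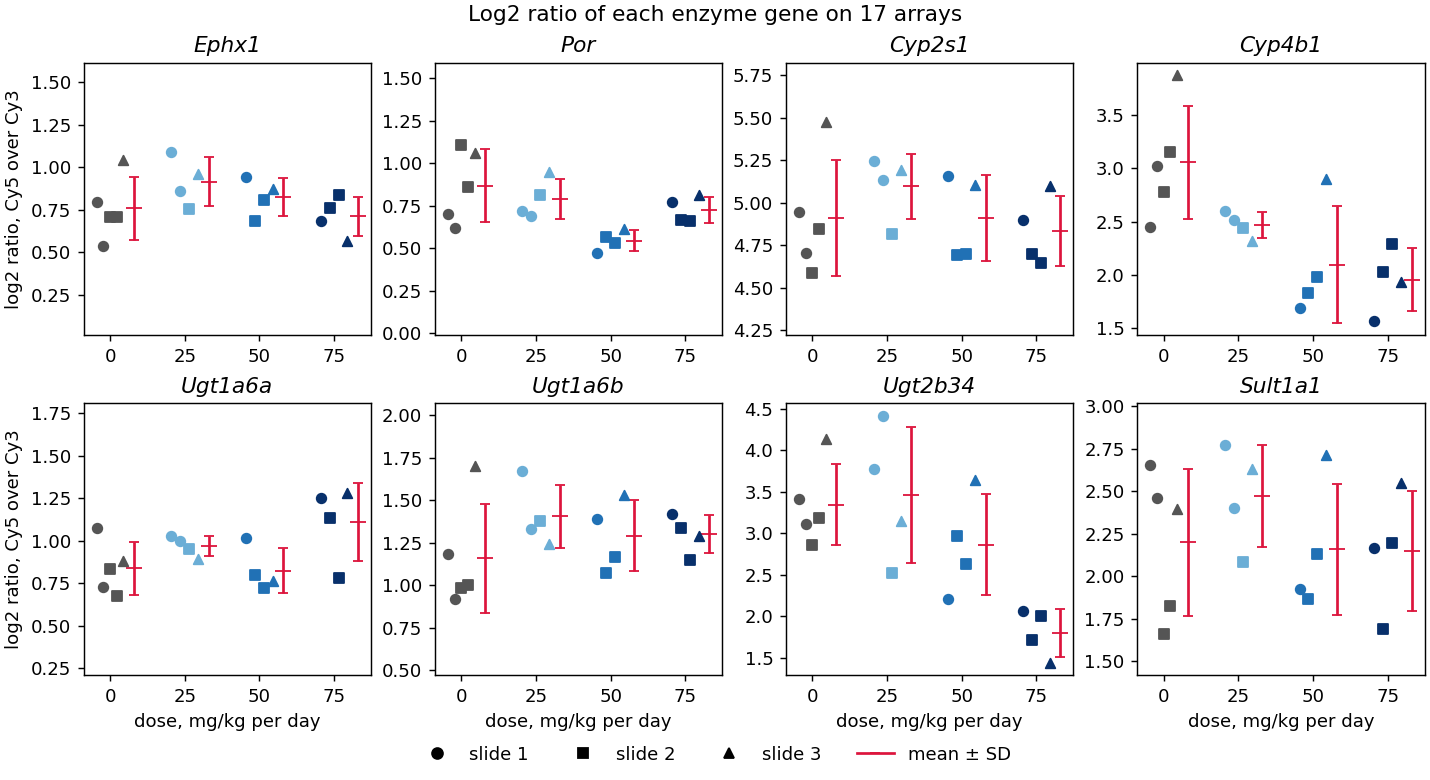
Log2 ratio of tissue (Cy5) over reference (Cy3) for each of the 8 genes, 1 panel per gene, against the dose of BaP in mg/kg per day. Each point is 1 array (1 animal), its shape gives the slide, and the bar is the group mean ± SD. In the panels of Ugt2b34 and Cyp4b1 all 75 mg/kg points lie below all control points, and in the panels of Ephx1, Cyp2s1 and Sult1a1 the 4 groups overlap.

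Ugt2b34 belongs to the UGT2B family of glucuronosyltransferases, which conjugate steroids, bile acids and drugs. Its log2 ratio in the 5 controls was 3.41, 3.12, 2.86, 3.19 and 4.14. At 25 mg/kg it was 3.77, 4.42, 2.52 and 3.15, at 50 mg/kg 2.21, 2.96, 2.63 and 3.65, and at 75 mg/kg 2.06, 1.71, 2.01 and 1.44. All 75 mg/kg arrays lay below all arrays of the other 3 groups, while the control, 25 and 50 mg/kg arrays overlapped. Means fell in the order 25 mg/kg (3.46 ± 0.82, SD), control (3.34 ± 0.49), 50 mg/kg (2.86 ± 0.61) and 75 mg/kg (1.81 ± 0.29).

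Against control, Ugt2b34 fell by 1.54 ± 0.35 (SE of the fit) at 75 mg/kg, with a 95% interval of -2.27 to -0.81 and an adjusted p = 0.0401 by limma. On the fold scale this is 2.90-fold lower. At 50 mg/kg the difference was -0.48 ± 0.35 (adjusted p = 0.837), and at 25 mg/kg 0.12 ± 0.35 (adjusted p = 0.999), neither past the threshold. The difference between 75 and 25 mg/kg, which shares the 75 mg/kg arrays, was -1.66 ± 0.36 (adjusted p = 0.160). It was -1.34 (adjusted p = 0.483) without 25 mg/kg replicate 7, the array of highest glandular marker level and also of highest Ugt2b34. Fitted as a straight line over the 17 arrays, Ugt2b34 fell by 0.50 ± 0.12 per 25 mg/kg per day (adjusted p = 0.0406 by limma). The step from 50 to 75 mg/kg was not tested.

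Within the 3 slides Ugt2b34 differed from control at 75 mg/kg by -1.20 (1 array against 2), -1.16 (2 against 2) and -2.70 (1 against 1). With the slide as a block in the fit it differed by -1.51 (adjusted p = 0.0303). The call stood close to the threshold. It ended when the arrays were only centred on their median (-1.20, adjusted p = 0.212) and when dim probes were kept (adjusted p = 0.0587, the same difference). It also ended in 11 of 17 fits that left out 1 array. The adjusted p was 0.0947, 0.0792 and 0.0688 without control replicate 1, 4 or 5, and 0.0845, 0.128, 0.0609 and 0.142 without 75 mg/kg replicate 17, 18, 19 or 20. It was 0.0528 and 0.0511 without 25 mg/kg replicate 6 or 9 and 0.0505 and 0.0560 without 50 mg/kg replicate 13 or 14. The difference itself stayed between -1.66 and -1.34 over all 17. For the straight line the call ended without control replicate 1, 4 or 5 (adjusted p = 0.0672, 0.0558 and 0.0789), without 25 mg/kg replicate 6 or 9 (0.0506 and 0.0571), without 50 mg/kg replicate 12 or 14 (0.0643 and 0.0576), and without 75 mg/kg replicate 17, 18, 19 or 20 (0.0904, 0.122, 0.0757 and 0.117).

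Cyp4b1 is a P450 found mainly outside the liver, which hydroxylates fatty acids and can activate some aromatic amines and plant toxins. Its log2 ratio in the controls was 2.45, 3.02, 2.78, 3.16 and 3.87. At 25 mg/kg it was 2.60, 2.51, 2.44 and 2.32, at 50 mg/kg 1.69, 1.83, 1.98 and 2.90, and at 75 mg/kg 1.57, 2.03, 2.29 and 1.94. The 75 mg/kg arrays all lay below the control and the 25 mg/kg arrays, and they overlapped with those at 50 mg/kg. Means fell with each dose, from 3.06 ± 0.53 (SD) in controls to 2.47 ± 0.12, 2.10 ± 0.54 and 1.96 ± 0.30, and each group overlapped with the next in this order.

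Cyp4b1 differed from control by -0.59 ± 0.26 (SE) at 25 mg/kg (adjusted p = 0.999) and by -0.96 ± 0.26 at 50 mg/kg (adjusted p = 0.335). At 75 mg/kg it fell by 1.10 ± 0.26 (95% interval -1.64 to -0.56, adjusted p = 0.0491 by limma), or 2.14-fold. The straight line fell by 0.37 ± 0.08 per 25 mg/kg per day (adjusted p = 0.0204). On that line 2 of the 8 members passed, Cyp4b1 and Ugt2b34, against 1.35% of all genes in either direction and 0.299% falling. Between 75 and 25 mg/kg the difference was -0.51 ± 0.27 (adjusted p = 1.00), and no member passed there, where 0.0608% of all genes did. Both Ugt2b34 and Cyp4b1 had no overlap between 75 mg/kg and control, as had 1.31% of all genes lower at that dose. The same held between 75 and 25 mg/kg, where 1.34% of all genes had all 75 mg/kg arrays lower.

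Within the 3 slides the Cyp4b1 difference at 75 mg/kg was -1.17 (1 array against 2), -0.81 (2 against 2) and -1.93 (1 against 1). It was -1.15 (adjusted p = 0.0139) with the slide as a block. The reference channel held little Cyp4b1: its Cy3 signal was well above background on 1 of 17 arrays. What this did to the ratio was not tested. In the Cy5 channel alone the difference was -1.16 (adjusted p = 0.0038), but with Feature Extraction's own processed signals it was -0.46 (adjusted p = 0.855). The call at 75 mg/kg also ended with median centring (-0.74, adjusted p = 0.349), a normexp offset of 10 (adjusted p = 0.120), no filter on dim probes (0.0703), a mean over the probes of each gene (0.0507) and a fit of the 2 groups alone (0.109). In a limma fit of all 27574 probes tested, used for the second probes, the adjusted p of Cyp4b1 at 75 mg/kg was 0.0545.

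Leaving out 1 array ended the 75 mg/kg call of Cyp4b1 in 14 of 17 fits, with differences of -1.17 to -0.90 in those 14. Without control replicate 1, the array of highest hepatocyte marker level, the call was kept (-1.25, adjusted p = 0.0308). Without control replicate 2, 3, 4 or 5 the adjusted p was 0.0687, 0.0696, 0.122 and 0.0680, and without 75 mg/kg replicate 17, 18 or 20 it was 0.184, 0.128 and 0.135. Without 25 mg/kg replicate 6, 7, 8 or 9 it was 0.0684, 0.0636, 0.0655 and 0.0660, and without 50 mg/kg replicate 12, 13 or 14 it was 0.0525, 0.0580 and 0.0685. The straight line of Cyp4b1 lost its call in 2 of 17 such fits, without control replicate 4 (adjusted p = 0.0568) and without 75 mg/kg replicate 17 (0.0658). It also lost it with processed signals (adjusted p = 0.733) and with median centring (0.209).

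In whole tissue, fewer cells of a type and less RNA per cell cannot be told apart. Beside the fall of Ugt2b34 and Cyp4b1 at 75 mg/kg, 9 of 10 adipocyte markers had a lower mean than in controls, with a median difference of -0.68 and 0 genes past the threshold. The array means of these markers ranged from 1.04 to 3.22 in controls and from 0.91 to 2.55 at 75 mg/kg. All 9 smooth muscle markers were lower in mean (median -0.41, 0 past the threshold), with array means of 4.36 to 5.02 in controls and 3.91 to 4.44 at 75 mg/kg. All 8 measured hepatocyte markers were lower in mean (median -0.49, 0 past the threshold), ranging over arrays from 0.66 to 4.40 in controls and from 0.95 to 3.46 at 75 mg/kg. All 8 measured markers of enteric nerve and glia were lower in mean too (median -0.28, 0 past the threshold). Of all genes, 52.0% were lower in mean at 75 mg/kg. With median centring the lower markers were 8 of 10, 6 of 9, 7 of 8 and 5 of 8 for these 4 lists in the same order, and with the slide as a block 1 of the 8 hepatocyte markers was higher. Without control replicate 1 the hepatocyte markers were lower in 3 of 8 (median 0.058), and the adipocyte markers in 9 of 10 (median -0.36). Over the 17 fits that left out 1 array, the hepatocyte median at 75 mg/kg ran from -1.01 to 0.058. Other lists were higher in mean at 75 mg/kg: 7 of 9 glandular stomach markers (median 0.98), 6 of 8 macrophage markers (0.25) and 6 of 8 fibroblast markers (0.19), with 0 past the threshold. The glandular stomach median ran from 0.45 to 1.44 over the fits that left out 1 array. Of 13 suprabasal keratinocyte markers 6 were higher and 7 lower (12 and 1 with median centring), and 2 passed, both higher. They were Krt16, a keratin of stressed and fast-growing epithelium, at 3.62 ± 0.57 (adjusted p = 0.00429 by limma) and Dsg1a, a desmosomal cadherin, at 1.69 ± 0.33 (adjusted p = 0.0154). Cps1 and Tdo2 of the hepatocyte list, and Chat and Gfap of the enteric list, were too dim to be tested. The part of these cell types in the fall of Ugt2b34 and Cyp4b1 was not tested.

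**Figure D2:**
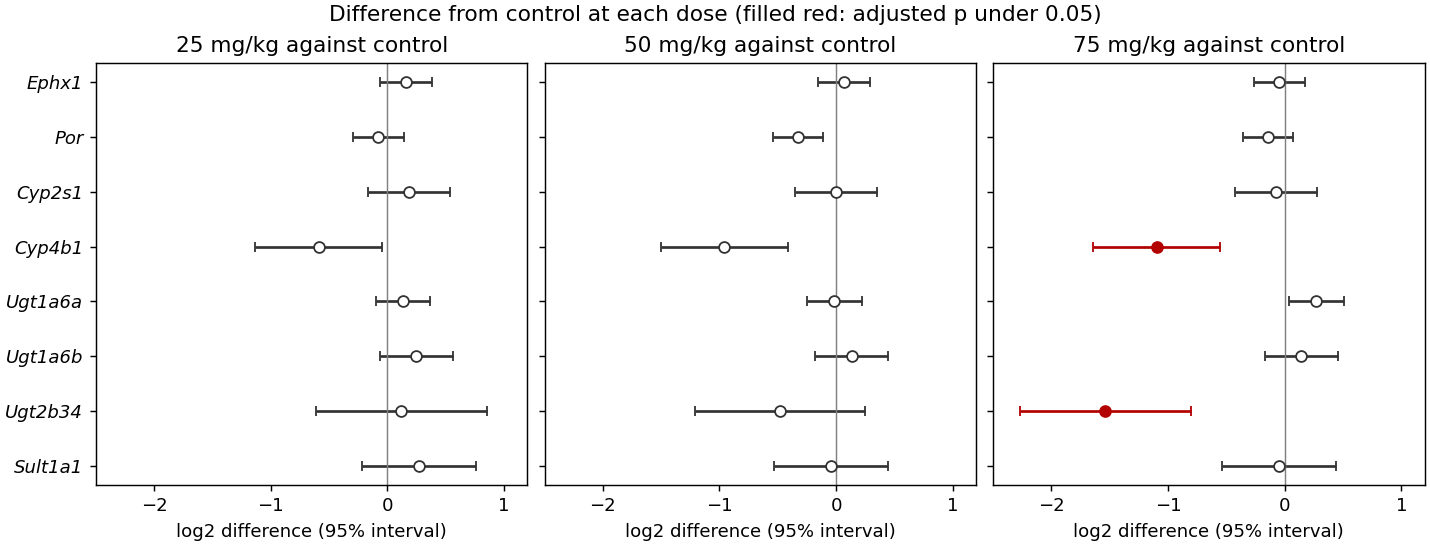
Difference in log2 ratio from control at 25, 50 and 75 mg/kg per day for each of the 8 genes, with the 95% interval of the fit. Filled red points have an adjusted p under 0.05. Only Ugt2b34 (-1.54) and Cyp4b1 (-1.10) at 75 mg/kg are filled. The intervals of Cyp4b1 at 25 and 50 mg/kg and of Por at 50 mg/kg lie below 0 without passing after adjustment. That of Ugt1a6a at 75 mg/kg lies above 0, also without passing.

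Por, the reductase that hands electrons from NADPH to the microsomal P450 enzymes, had its lowest values at the middle dose. Its log2 ratio was 0.70, 0.62, 1.11, 0.86 and 1.06 in controls and 0.72, 0.69, 0.81 and 0.95 at 25 mg/kg. It was 0.47, 0.57, 0.53 and 0.61 at 50 mg/kg and 0.77, 0.66, 0.66 and 0.81 at 75 mg/kg. The 50 mg/kg arrays all lay below all arrays of the other 3 groups, though the highest of them, at 0.61, was close to the lowest control, at 0.62. Por was the 1 member of 8 without overlap between 50 mg/kg and control, and 0.987% of all genes were lower in this way. The difference at 50 mg/kg was -0.32 ± 0.10 (95% interval -0.54 to -0.11), not past the threshold (adjusted p = 0.484 by limma). At 75 mg/kg it was -0.14 ± 0.10 (-0.36 to 0.074), and it turned to 0.25 when arrays were only centred on their median.

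Ephx1, the microsomal epoxide hydrolase, had a log2 ratio of 0.80, 0.54, 0.71, 0.71 and 1.04 in controls and 1.09, 0.86, 0.75 and 0.96 at 25 mg/kg. It was 0.94, 0.68, 0.81 and 0.87 at 50 mg/kg and 0.68, 0.76, 0.84 and 0.57 at 75 mg/kg. The groups overlapped throughout. The differences from control were 0.16 ± 0.10, 0.068 ± 0.105 and -0.046 ± 0.105 at 25, 50 and 75 mg/kg, none past the threshold. At 75 mg/kg the 95% interval of the Ephx1 difference in this fit, not adjusted for the number of genes, was -0.27 to 0.17. Its second probe, dimmer and correlated with the first at r = 0.71 over the 17 arrays, differed by -0.011 at 75 mg/kg. With median centring alone the Ephx1 difference was 0.36 (adjusted p = 0.541), a setting that moved the median of all genes by 0.19.

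Cyp2s1 is a P450 of epithelia such as skin, airway and gut. Its log2 ratio was 4.95, 4.71, 4.59, 4.84 and 5.47 in controls, 5.24, 5.14, 4.81 and 5.19 at 25 mg/kg, 5.16, 4.69, 4.70 and 5.10 at 50 mg/kg, and 4.90, 4.70, 4.65 and 5.10 at 75 mg/kg. The groups overlapped and their means stayed between 4.83 and 5.09. The difference at 75 mg/kg was -0.076 ± 0.167 with a 95% interval of -0.43 to 0.28, and it was 0.31 with median centring.

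Ugt1a6a and Ugt1a6b encode glucuronosyltransferases of planar phenols, among them the phenols and quinols of BaP. The gene spans of each overlap those of 8 other Ugt1a genes on chromosome 1, which share their last exons, so a probe may read several of them and both values are uncertain as to gene. Ugt1a6a measured 1.08, 0.73, 0.83, 0.67 and 0.88 in controls and 1.25, 1.13, 0.78 and 1.28 at 75 mg/kg. The lowest 75 mg/kg array lay among the controls and the other 3 above them. The difference was 0.27 ± 0.11 (95% interval 0.041 to 0.51), not past the threshold (adjusted p = 0.390 by limma). It was positive under each of the 12 other settings, from 0.17 to 0.32. At 25 and 50 mg/kg the Ugt1a6a difference was 0.13 ± 0.11 and -0.014 ± 0.110. The probe was dim, with a Cy5 signal of 105 to 209 over a background of 63 to 75, so the offset added to both channels narrows its ratios.

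Ugt1a6b measured 1.18, 0.92, 0.99, 1.00 and 1.70 in controls and 1.42, 1.34, 1.15 and 1.29 at 75 mg/kg, 1 control lying above all treated arrays of that dose. The differences from control were 0.25 ± 0.15, 0.13 ± 0.15 and 0.14 ± 0.15 at 25, 50 and 75 mg/kg (adjusted p = 0.999, 0.900 and 0.809 by limma). Its second, dimmer probe (r = 0.67 with the first) gave -0.040 ± 0.146 at 75 mg/kg, so the 2 probes differed in sign.

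Sult1a1, the phenol sulfotransferase, varied widely among animals of every group. Its log2 ratio was 2.66, 2.46, 1.66, 1.82 and 2.40 in controls, 2.77, 2.40, 2.08 and 2.63 at 25 mg/kg, 1.93, 1.86, 2.13 and 2.71 at 50 mg/kg, and 2.16, 1.69, 2.19 and 2.55 at 75 mg/kg. The lowest array of every group was from slide 2, and the groups overlapped. The difference at 75 mg/kg was -0.050 ± 0.231 with a 95% interval of -0.54 to 0.44, and a second probe that followed it over the arrays (r = 0.91) gave -0.14 ± 0.29. The interval of -0.54 to 0.44 is not adjusted for the number of genes, so it is not the smallest change that could pass the threshold. That size was not computed.

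How the 8 genes varied together from animal to animal was read from 28 pairs over the 17 arrays after the group means were removed. Of these pairs 0 passed after adjustment over the pairs, and 5 had a permutation p under 0.05. The share among pairs of all genes was not computed. Of the 5, Sult1a1 and Cyp2s1 (r = 0.56) had r = -0.23 with the slide means also removed, and the rest stayed positive. The closest pair was Ugt1a6b and Cyp2s1, with Pearson r = 0.80 (permutation p = 0.0042, adjusted 0.118) and Spearman rho = 0.70 (p = 0.00826, adjusted 0.131). Without the 2 arrays farthest from the median in Ugt1a6b r was 0.64, and over all 17 arrays with the slide means also removed it was 0.75. Ugt2b34 and Cyp4b1, the pair that fell, had r = 0.55 (permutation p = 0.0220, adjusted 0.206) and rho = 0.51 (p = 0.0395, adjusted 0.209). For this pair r was 0.48 without the 2 arrays farthest from the median in Ugt2b34, and 0.65 over all arrays with the slide means removed.

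The genes most like each member over the 17 arrays, dose included, were ranked by Pearson r of log2 ratios among genes with a symbol, as a description. With dose included, genes near a member that fell tend to fall too, so their falls are not separate evidence. Their calls are given for the reported processing only, apart from Sult1e1. Nearest to Ugt2b34 were Sult1e1 (r = 0.90), Decr1 (0.88) and Aldh1a1 (0.86). Decr1, a mitochondrial reductase of unsaturated fatty acid oxidation, fell by 0.96 ± 0.21 at 75 mg/kg (adjusted p = 0.0349 by limma). Aldh1a1, which makes retinoic acid, differed by -0.31 ± 0.14 (adjusted p = 0.488). Nearest to Cyp4b1 were 2810408A11Rik (r = 0.86), Impa2 (0.83) and Pramel13 (0.83). Pramel13 fell by 1.28 ± 0.29 at 75 mg/kg (adjusted p = 0.0441), with a Cy3 signal well above background on 1 of 17 arrays, as for Cyp4b1, and Impa2, an inositol monophosphatase, differed by -0.55 ± 0.14 (adjusted p = 0.0894). For the 6 other members the nearest genes did not pass at 75 mg/kg. They were Suclg2, Padi4 and Cbr1 for Ephx1 (r = 0.83 to 0.85), Gars, Itprip and Prpf31 for Ugt1a6a (0.84 to 0.85), and Arhgap12, Ptgr1 and Eps8l2 for Ugt1a6b (0.91 to 0.93). They were Syncrip, Gtdc1 and Gpx3 for Sult1a1 (0.84 to 0.90), Tenm2, Zfp707 and Acaa1b for Cyp2s1 (0.90 to 0.93), and Spop, Irf3 and Comtd1 for Por (0.81 to 0.84).

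The other genes of the pathway were followed in 8 lists, and by limma 0 of their 115 measured genes passed in any dose against control. At an unadjusted p under 0.05 there were 7, 8 and 13 of them at 25, 50 and 75 mg/kg, or 6.09%, 6.96% and 11.3%, against 3.26%, 6.81% and 10.1% of all genes. The shares at 50 and 75 mg/kg were near those of all genes. Among the other glucuronosyltransferases 6 of 18 genes were measured, 2 of them well above background on all arrays of a group. All 6 had lower means at 50 mg/kg (median -0.39) and at 75 mg/kg (median -0.32), and 1 of the 6 was positive at 75 mg/kg with median centring, with Cy5 alone or with the slide as a fixed block. Over all genes 52.1% were lower in mean at 50 mg/kg and 52.0% at 75 mg/kg. Without control replicate 1 the medians of the 6 genes were -0.19 at 50 mg/kg (4 of 6 negative) and -0.100 at 75 mg/kg (5 of 6 negative). The smallest p at 75 mg/kg was that of Ugt3a1, at -0.36 ± 0.20 (adjusted p = 0.596 by limma). Its Cy5 signal was well above background on 7 of 17 arrays, 3 of 5 in controls and 1 of 4 at 75 mg/kg, so most of its values lie near the floor.

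Among the other sulfotransferases 5 of 12 genes were measured. Sult1e1, which inactivates oestrogens by sulfation, had the widest difference. It measured 3.68, 4.65, 3.28, 4.24 and 6.20 in controls, 5.80, 5.88, 4.02 and 5.60 at 25 mg/kg, 1.498, 3.97, 2.62 and 5.43 at 50 mg/kg, and 1.06, 1.72, 2.57 and 1.94 at 75 mg/kg. All 75 mg/kg arrays were below all control and all 25 mg/kg arrays, as for 1.31% and 1.34% of all genes. The Sult1e1 difference from control at 75 mg/kg was -2.59 ± 0.69 (adjusted p = 0.0988 by limma), short of the threshold, and with the slide as a block it was -2.67 (adjusted p = 0.0287). In the reference channel Sult1e1 was not well above background on any of the 4 arrays at 75 mg/kg, nor on 3 of the 4 at 50 mg/kg and 1 of the 5 controls. In the Cy5 channel alone Sult1e1 passed at 75 mg/kg (-2.42, adjusted p = 0.0343), as it did without 50 mg/kg replicate 15 (adjusted p = 0.0376). The other 4 sulfotransferases lay between -0.38 and 0.50 at 75 mg/kg.

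Of the other P450 genes of families 1 to 4, 45 of 76 were measured, with a median difference of -0.11 at 75 mg/kg, 27 negative and 18 positive, which became 20 and 25 with median centring (median 0.036) and 11 and 34 without control replicate 1 (median 0.074). Over all genes 52.0% were negative at that dose. Cyp2c38, of a family that oxidises drugs and arachidonic acid, had the smallest p of the 45, at 0.95 ± 0.23 (adjusted p = 0.0685 by limma). All its 75 mg/kg arrays (1.72 to 2.50) lay above all controls (0.53 to 1.47), and 1.99% of all genes were higher in this way. Cyp2c38 passed with the slide as a block (0.93, adjusted p = 0.0455), with median centring (0.97, adjusted p = 0.0325) and without 25 mg/kg replicate 7 (adjusted p = 0.0340). Between 75 and 25 mg/kg 36 of the 45 P450 genes were negative (median -0.28), beside 52.7% of all genes and 8 of 8 hepatocyte markers (median -0.82). With the slide as a fixed block it was 33 of the 45 (median -0.13). Without 25 mg/kg replicate 7 it was 29 of the 45 (median -0.043), with 7 of 8 hepatocyte markers negative (median -0.39).

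Of the electron donors of P450, 8 of 10 were measured, with a median of 0.056 at 75 mg/kg, and the smallest p was that of the cytochrome b5 of mitochondria, Cyb5b, at -0.32 ± 0.13 (adjusted p = 0.411). Of the other hydrolases, reductases and dehydrogenases 26 of 32 were measured (median -0.15, 18 negative, but 0.17 with 5 negative with median centring), and the aldo-keto reductase Akr1b8 stood at -0.50 ± 0.18 (adjusted p = 0.305). Of the genes that supply or undo conjugation 10 of 12 were measured (median -0.014, or 0.22 with median centring). Arsa, a lysosomal sulfatase, stood at -0.62 ± 0.18 (adjusted p = 0.157), and at -0.67 (adjusted p = 0.0207 by limma) with the slide as a block. Of the export transporters 7 of 8 were measured (median -0.032, or 0.22 with median centring), with the efflux pump Abcc1 at 0.23 ± 0.10 (adjusted p = 0.454). Of the receptors 8 of 10 were measured (median 0.12), with Nfe2l2, which drives the antioxidant response, at 0.38 ± 0.15 (adjusted p = 0.369).

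**Figure D3:**
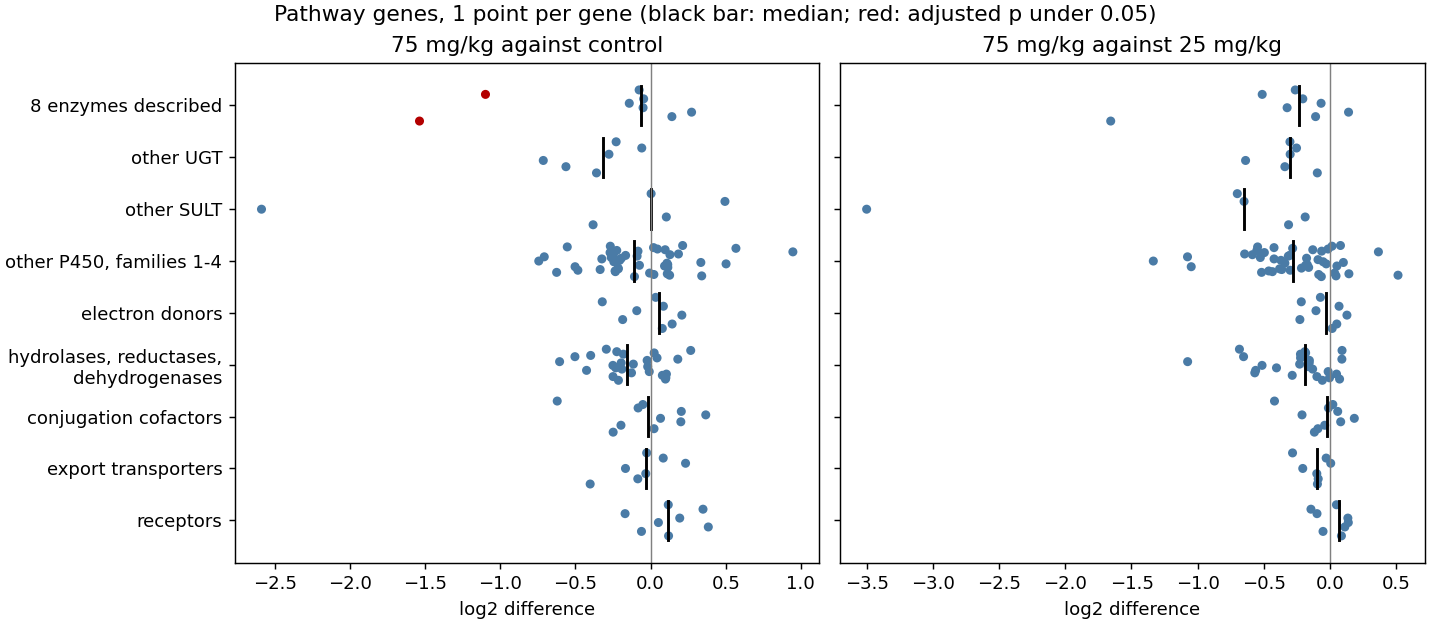
Difference in log2 ratio of each measured gene of the 8 enzymes and of the 8 pathway lists, at 75 mg/kg against control (left) and against 25 mg/kg (right). Each point is 1 gene, the black bar is the median of its row, and red marks an adjusted p under 0.05. The 2 red points, both on the left, are Ugt2b34 and Cyp4b1, and the point farthest left in both panels is Sult1e1.

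**Figure D4:**
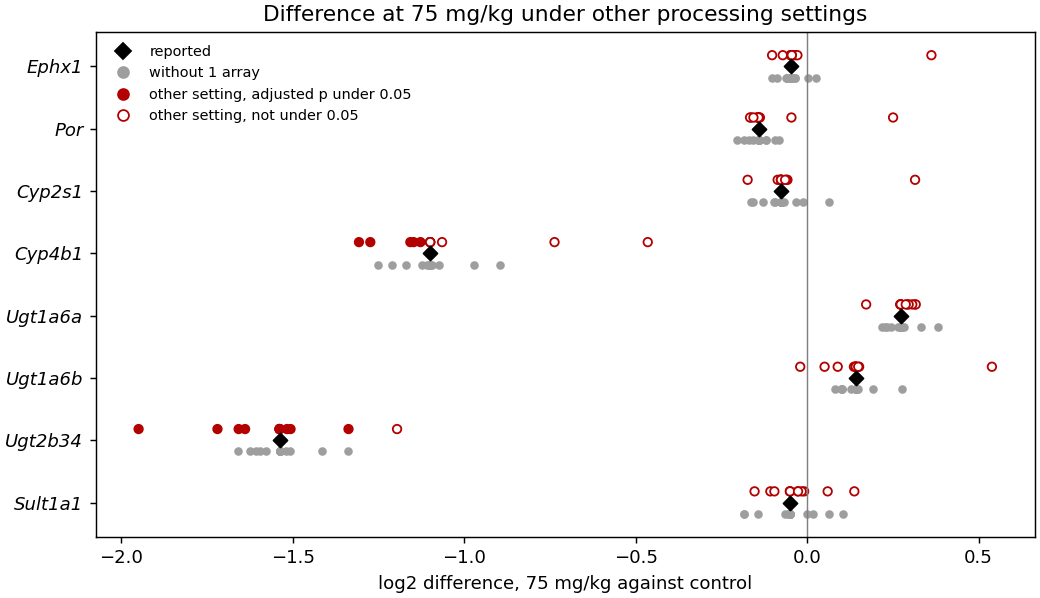
Difference in log2 ratio at 75 mg/kg against control for the 8 genes under the reported processing (diamonds), in 17 fits that each leave out 1 array (grey) and under 12 other settings (red, filled where the adjusted p is under 0.05). Ugt2b34 lies between -1.95 and -1.20 and Cyp4b1 between -1.31 and -0.46 under the other settings, while the values of Ephx1, Por, Cyp2s1, Ugt1a6b and Sult1a1 lie on both sides of 0.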

How the data were processed

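The authors deposited 1 scanner table of intensity values for each of the 17 arrays (62976 spots, 3671 of them controls). The file headers name Feature Extraction 10.7.3.1 as its source. Median signal and median local background of both channels were used. Per the labels' protocols, 200 ng of RNA with an integrity number above 6.6 entered each labelling. The authors also deposited a series table of log2 values, used only as an alternative. Its scale is not given in the sources used here. It matched own log2 ratios, made by loess with the background left in, at a correlation of 0.998 to 0.999 and a slope of 0.995 to 0.998, with column medians of -0.03 to -0.02.

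Normexp (offset 50) removed the background, and loess normalized each array, fitted without the control spots. Controls and outlier spots were dropped, and repeat spots of a probe (432 probes) were averaged. Probes with Cy5 well above background on 4 or more arrays were tested (27574). The brightest probe stood for its gene (21382 genes, 13854 with a symbol). Symbols came from the probe's RefSeq transcript and the GRCm38.p6 gene table, which named 26413 of 55681 probes. The array design names the older build mm9, so probes are given no coordinates. No member value was missing or saturated.

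Tests used limma 3.58.1 under R 4.3.3, with all 17 arrays in 1 fit of 4 group means, or of dose as a straight line. P-values measure the spread between single animals, and the number of arrays limits the precision. On simulated data for 75 mg/kg against control over 21382 genes, 88% of 100 genes changed by 1 on the log2 scale were recovered, and 96% of 100 genes changed by 1.5. The changed genes were drawn at random from all genes, and the noise was independent between genes. These shares need not hold for genes of wide spread, such as Ugt2b34 (SE 0.35). Correlations between members used 1e+05 permutations within groups.

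The members and lists were chosen with earlier results of these data known. The rule for named genes took every member, every pathway gene that passed in a dose against control, otherwise the gene of smallest p at 75 mg/kg in each list, and the 3 genes most like each member. Alternatives changed the background, signal, normalization, filter, probe rule, groups in the fit, slide block and arrays.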

Additional observations from a re-analysis of the deposited data

Results flagged for a closer look

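Each of the 8 genes was checked in each of the 4 groups for 1 array standing far from the others of its group, by Dixon's criterion. Of the 32 sets of values, 0 met it.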

How the results depend on the processing

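No paired analysis was possible because the groups share no replicate numbers. Each result was recomputed under 12 other settings (11 for the straight line) and in 17 fits that left out 1 array. No member passed at 25 or 50 mg/kg against control, or between 75 and 25 mg/kg, under any of these. At 75 mg/kg the count of members past the threshold, 2 as reported, was 1 with a normexp offset of 10, with processed signals, with a mean over the probes of a gene and with only the 2 groups compared, and 0 with median centring and with no filter on dim probes. It ranged from 0 to 2 when 1 array was left out. On the straight line the count of 2 became 1 with processed signals, 0 with median centring and 1 with no filter, and ranged from 0 to 2 over left-out arrays. The fall of Ugt2b34 and of Cyp4b1 at 75 mg/kg kept its sign under all 12 settings and all 17 left-out arrays. The cause of the lost calls was not tested.

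Values near 0 changed sign, none of them past the threshold. With median centring, which moved the median of all genes by 0.16 at 25 and 0.19 at 75 mg/kg, these were Por at 25 mg/kg (0.22), Sult1a1 at 50 mg/kg (0.029), Cyp2s1, Ephx1, Por and Sult1a1 at 75 mg/kg (0.31, 0.36, 0.25 and 0.060), Por between 75 and 25 mg/kg (0.026) and the lines per mg/kg of Cyp2s1, Ephx1 and Por (0.0032, 0.00422 and 0.00181). With processed signals they were Por and Ugt2b34 at 25 mg/kg (0.035 and -0.051), Cyp2s1, Sult1a1 and Ugt1a6b at 50 mg/kg (-0.12, 0.50 and -0.018), Sult1a1 and Ugt1a6b at 75 mg/kg (0.14 and -0.020) and the lines of Sult1a1 and Ugt1a6b (0.00207 and -0.000824). With no background subtraction Cyp2s1 at 50 mg/kg was -0.0061, and with an offset of 10 Sult1a1 at 50 mg/kg was 0.0051. With Cy5 alone Ugt1a6a at 50 mg/kg was 0.032 and Por between 75 and 25 mg/kg 0.053, and with the slide as a fixed or random block Ugt1a6a at 50 mg/kg was 0.0091 or 0.00070. When 1 array was left out, signs changed for Ugt2b34 at 25 mg/kg (-0.20 to 0.43), for Cyp2s1 (-0.082 to 0.14), Sult1a1 (-0.23 to 0.073) and Ugt1a6a (-0.077 to 0.046) at 50 mg/kg, for Cyp2s1 (-0.16 to 0.064), Ephx1 (-0.10 to 0.025) and Sult1a1 (-0.19 to 0.10) at 75 mg/kg, and for the lines of Cyp2s1 (-0.00262 to 3.26e-05) and Sult1a1 (-0.00347 to 0.000143).

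Over all genes, 191 were higher and 45 lower at 75 mg/kg (80.9% higher). The lower count was 25 with processed signals, 3 with median centring (142 higher, 97.9%), 80 with Cy5 alone (188 higher, 70.1%) and 17 with only the 2 groups compared. With the slide as a fixed block 330 were higher and 94 lower, and with a random block 300 and 83. Leaving out 1 array gave 100 to 241 higher and 16 to 50 lower. On the line 224 rose and 64 fell, against 41 falling with processed signals, 6 with median centring (166 rising, 96.5%), 141 with Cy5 alone (270 rising, 65.7%), 389 and 160 with the fixed block and 349 and 140 with the random block, and 159 to 314 and 25 to 89 over left-out arrays. Between 75 and 25 mg/kg 7 were higher and 6 lower, against 0 and 0 with processed signals, median centring or only the 2 groups, 19 and 13 with the fixed block, 22 and 10 with the random block, and 4 higher with an offset of 10, no filter or a mean over probes. Leaving out 1 array gave 0 higher (without 75 mg/kg replicate 17) to 31 (without 75 mg/kg replicate 19), and 0 to 9 lower. At 50 mg/kg 9 were higher and 1 lower, against 1 and 0 with median centring, 25 and 3 with the fixed block, 19 and 2 with the random block, 0 lower with processed signals, no filter or a mean over probes, and 2 lower with Cy5 alone or only the 2 groups. Leaving out 1 array gave 2 to 32 higher, the most without 50 mg/kg replicate 15 and next 26 without control replicate 2, and 0 to 2 lower. At 25 mg/kg 3 were higher, against 0 with median centring and 1 with an offset of 10, processed signals, Cy5 alone, no filter or the fixed block, and 0 to 2 over left-out arrays.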

Other observations

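At 25 mg/kg the other P450 genes of families 1 to 4 had positive differences from control in 32 of 45 genes (median 0.16), and at 50 mg/kg negative ones in 33 of 45 (median -0.20), with 0 genes past the threshold at either dose. Over all genes 47.7% were negative at 25 mg/kg and 52.1% at 50 mg/kg. The hepatocyte markers were positive in 6 of 8 at 25 mg/kg (median 0.36) and negative in 8 of 8 at 50 mg/kg (median -0.64). Without 25 mg/kg replicate 7 the P450 genes at 25 mg/kg were positive in 17 of 45 (median -0.094) and the hepatocyte markers in 3 of 8 (median -0.16). Without control replicate 1 the P450 genes at 50 mg/kg were negative in 27 of 45 (median -0.039) and the hepatocyte markers in 5 of 8 (median -0.11). At 25 mg/kg, leaving out control replicate 1 gave 38 of 45 positive P450 genes (median 0.34) and 8 of 8 positive hepatocyte markers (median 0.92). The direction of both lists at 25 mg/kg thus turned without 25 mg/kg replicate 7, and their size also moved without control replicate 1.

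Of genes named after their values were seen, Cyp4a10 and Cyp4a31, fatty acid hydroxylases, stood at -0.48 ± 0.17 and -0.63 ± 0.20 at 75 mg/kg, both at an unadjusted p under 0.05 and neither past the threshold after adjustment. Cyp4a31 passed at 75 mg/kg without control replicate 3 (-0.79, adjusted p = 0.0498 by limma). Nqo1, a quinone reductase of the AHR and antioxidant responses, stood at 0.36 ± 0.13 at 25 mg/kg, and Ahrr, the repressor of AHR, at 0.49 ± 0.18. At the same dose the AHR targets Cyp1a1, Cyp1b1 and Tiparp stood at 0.13 ± 0.18, -0.29 ± 0.20 and 0.031 ± 0.123. None of these 5 passed the threshold after adjustment over all genes.

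Between 75 and 25 mg/kg, 22 of 26 measured hydrolases, reductases and dehydrogenases were lower in mean (median -0.18), 7 of them at an unadjusted p under 0.05 and 0 after adjustment by limma. Over all genes 52.7% were lower in mean in this comparison, and 4.74% had such an unadjusted p. All 5 other sulfotransferases and all 6 other glucuronosyltransferases were lower in mean in the same comparison (medians -0.65 and -0.30), with 0 past the threshold. Without 25 mg/kg replicate 7, the array with high glandular stomach and hepatocyte markers, 20 of the 26 hydrolases, reductases and dehydrogenases were lower (median -0.17, 6 at an unadjusted p under 0.05 against 3.7% of all genes). The sulfotransferases were then lower in 4 of 5 (median -0.19) and the glucuronosyltransferases in 4 of 6 (median -0.076), beside 52% of all genes.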
